A study of Mus musculus with 10 samples.

Results

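Kruppel-like factors are zinc finger transcription factors, and 10 genes of the family were followed here in the mouse lens: Klf2, Klf3, Klf4, Klf5, Klf6, Klf7, Klf9, Klf10, Klf13 and Klf16. The 10 genes were chosen with earlier results of these data known, and other genes of the family are described further below. Their probe sets were taken by name, as every probe set of the array whose only annotated symbol was 1 of the 10. That gave 34 of the 45037 probe sets that are not controls, and all 34 carried the same symbol in RefSeq. Of the 34, 29 passed a filter on the mean signal over the 10 arrays (53.95, the 40th percentile) and were tested, and each of the 10 genes kept at least 1 probe set. The other 5 had means over the 10 arrays below that value and are described at the end.

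RNA came from whole lenses of mice labelled Klf4-conditional null (Klf4CN) or wild type (WT), 1 array per pooled sample. At postnatal day 56 (PN56) there were 2 Klf4CN and 2 WT samples, each of lenses pooled from 3 young adults. At embryonic day 16.5 (E16.5) there were 3 Klf4CN and 3 WT samples, each of lenses pooled from 5 embryos. The labels call the samples independent preparations, and they give neither the promoter that drives the recombinase, nor the deleted part of Klf4, nor whether WT animals carried any of these alleles.

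Kruppel-like factors bind GC-rich and CACCC-containing promoter elements through C2H2 zinc fingers at the C terminus, and their N-terminal parts recruit different partners. Klf3 recruits the corepressor CtBP. Klf2, Klf4, Klf5, Klf6 and Klf7 can recruit acetyltransferases such as p300, and Klf9, Klf10, Klf13 and Klf16 bind the corepressor Sin3. In the eye surface Klf4 is known for barrier and differentiation genes of epithelia, and several members are themselves targets of family members through GC-rich promoters.

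Promoter letters are shown for the 5 members with the most marked differences below, because family members read GC-rich elements. RefSeq promoters of build GRCm38.p6 matched 7 of the 10 genes. Each line is the 250 bases before the annotated start, 5′ to 3′ on the gene's strand. Capitals mark CACCC or its other strand GGGTG, the core read by Kruppel-like factors, and GGGCGG or its other strand CCGCCC, the GC box, with overlapping matches run together.
Klf4, chr4:55532476-55532725, minus strand: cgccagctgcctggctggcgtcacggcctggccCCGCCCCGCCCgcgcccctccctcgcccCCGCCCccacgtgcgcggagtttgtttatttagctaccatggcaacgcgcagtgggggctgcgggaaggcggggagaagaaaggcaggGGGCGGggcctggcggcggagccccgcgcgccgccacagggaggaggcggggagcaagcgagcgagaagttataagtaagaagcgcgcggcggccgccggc
Klf2, chr8:72318812-72319061, plus strand: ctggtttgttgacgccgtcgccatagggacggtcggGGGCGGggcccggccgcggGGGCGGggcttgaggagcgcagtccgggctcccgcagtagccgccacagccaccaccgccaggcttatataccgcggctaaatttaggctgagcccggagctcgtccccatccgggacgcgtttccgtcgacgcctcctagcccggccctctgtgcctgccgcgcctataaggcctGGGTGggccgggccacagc
Klf7, chr1:64121390-64121639, minus strand: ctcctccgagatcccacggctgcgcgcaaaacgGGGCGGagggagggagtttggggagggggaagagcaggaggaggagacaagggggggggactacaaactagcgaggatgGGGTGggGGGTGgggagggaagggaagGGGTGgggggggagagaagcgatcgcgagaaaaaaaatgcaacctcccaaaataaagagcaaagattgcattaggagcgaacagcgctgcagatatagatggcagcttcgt
Klf6, chr13:5861239-5861488, plus strand: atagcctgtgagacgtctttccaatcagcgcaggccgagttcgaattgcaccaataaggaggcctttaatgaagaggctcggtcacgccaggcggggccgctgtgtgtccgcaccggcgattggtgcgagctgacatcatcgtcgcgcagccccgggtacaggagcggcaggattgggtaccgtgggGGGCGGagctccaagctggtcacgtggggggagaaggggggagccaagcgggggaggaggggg
Klf9, chr19:23140976-23141225, plus strand: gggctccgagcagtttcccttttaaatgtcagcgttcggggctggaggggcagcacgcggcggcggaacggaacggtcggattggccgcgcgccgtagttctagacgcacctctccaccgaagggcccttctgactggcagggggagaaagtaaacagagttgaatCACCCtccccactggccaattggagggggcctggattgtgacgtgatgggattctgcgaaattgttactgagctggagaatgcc
The Klf4 window held 4 GC boxes, 2 of which share a letter, and no CACCC core on either strand. The Klf2 window held 2 GC boxes and 1 core, and the Klf7 window 1 GC box and 3 cores. In the Klf6 window there was 1 GC box, and in the Klf9 window 1 core and no GC box. Among the 7 windows 5 held a core and 6 a GC box, against 52.0% and 32.7% of 32851 promoter windows of the same length. These matches describe letters only.

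Every array had been scaled to the same trimmed mean of 500, with a median signal of 91.0 to 108.6 at PN56 and 63.0 to 76.9 at E16.5. Replicates correlated at 0.94 to 0.98 in log2 signal. Lens markers such as crystallins were bright in all groups: the 13 measured summed to 623600 and 633500 in lenses labelled Klf4CN and to 820200 and 928400 in WT at PN56, and to 261400 to 277300 and 288400 to 334100 at E16.5. Of these 13, 7 were called lower in lenses labelled Klf4CN at PN56, and 0 to 9 over the alternatives (1 with each array centred on its median, and 1 without the second array of either PN56 group). Over all probe sets 10.1% were called between genotypes at PN56. No marker of any list was at 0 on any array, but some group means lay below the offset of 16 added before taking logs. Among them were 3 of 5 erythroid markers in PN56 WT lenses and 4 of 10 photoreceptor markers in E16.5 WT lenses. So were 3 of 10 corneal markers in E16.5 lenses labelled Klf4CN. The size of the differences of such markers depends on the offset. The dap spike added during preparation was at 6.5 to 14.5 on PN56 arrays and 3125 to 4159 on E16.5 arrays, so that array preparation and age cannot be told apart. The probe set for the 5' end of 18S rRNA was at 20897 to 22776 on E16.5 arrays labelled Klf4CN and 1155 to 2413 on E16.5 WT arrays. At PN56 it was at 5700.1 and 11005 in lenses labelled Klf4CN and 528 and 2870.0 in WT. It thus differed between genotypes at both ages, and its part in the genotype differences below was not tested. The cre spike was at 71225 and 74903 in PN56 lenses labelled Klf4CN and at 102925.5 and 117568 in PN56 WT. At E16.5 it was at 37142 to 39583 and 40431.5 to 48725 in the same order. It was lower in lenses labelled Klf4CN at both ages, and its part was not tested either.

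The comparison of genotypes asked which members differ in lenses labelled Klf4CN. Klf4 itself had signals of 732 and 702 on the probe set 1417394_at in PN56 lenses labelled Klf4CN, against 157 and 214 in PN56 WT lenses. At E16.5 the same probe set read 1360, 805 and 1072 in lenses labelled Klf4CN, against 775, 1015 and 428 in WT lenses. The PN56 groups lay far apart and the E16.5 groups overlapped. At PN56 the difference was 1.88 on the log2 scale (SE 0.34, 95% interval 1.14 to 2.62, limma adjusted p = 0.00527), a 3.68-fold higher signal. At E16.5 it was 0.59 (95% interval -0.01 to 1.19, limma adjusted p = 1).

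A second Klf4 probe set, 1417395_at, read 367 and 311 in PN56 lenses labelled Klf4CN, against 185 and 132 in PN56 WT lenses. In E16.5 lenses it read 702, 434 and 479 where labelled Klf4CN, against 393, 442 and 205 in WT. Again only the PN56 groups were separate. Its PN56 difference of 1.04 (SE 0.34, 95% interval 0.29 to 1.79) was not past the test (limma adjusted p = 0.077). It was past the test with quantile normalization (1.29), with the replicate block (1.04, limma adjusted p = 0.045) and without E16.5 WT replicate 3 (limma adjusted p = 0.034). At E16.5 its difference was 0.65 (0.04 to 1.26, limma adjusted p = 1).

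Klf4 is the gene named as null in the labels, and its signal was not lower in lenses labelled Klf4CN at either age. Where the probes lie relative to the deleted part is not given, and a probe outside it checks nothing about the deletion, so every direction below is that of the lenses as labelled. In whole lenses, a lower signal may come from fewer cells of a type or from less RNA per cell, and these cannot be told apart. Endothelium, macrophages and corneal epithelium are known to express Klf4. At PN56 their markers summed to 932 to 1125 in lenses labelled Klf4CN and 814 to 973 in WT for endothelium, to 2374 to 4251 and 2386 to 2480 for macrophages, and to 5867 to 7052 and 11890 to 13930 for corneal epithelium. Of 12 macrophage markers 2 were called higher in lenses labelled Klf4CN (5 without PN56 Klf4CN replicate 2), of 12 endothelial markers 1 higher and 1 lower (0 in several alternatives), and of 6 corneal markers 2 lower. Over all probe sets 10.1% were called at PN56, 5.09% higher. At E16.5 the markers of retinal neurons and progenitors and of pigment cells had median genotype differences of 1.66 and 1.85. The median over all probe sets was 0.006 there, and none of these 11 and 7 markers was called. The part of all these cells in the Klf4 signal was not tested.

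**Figure D1:**
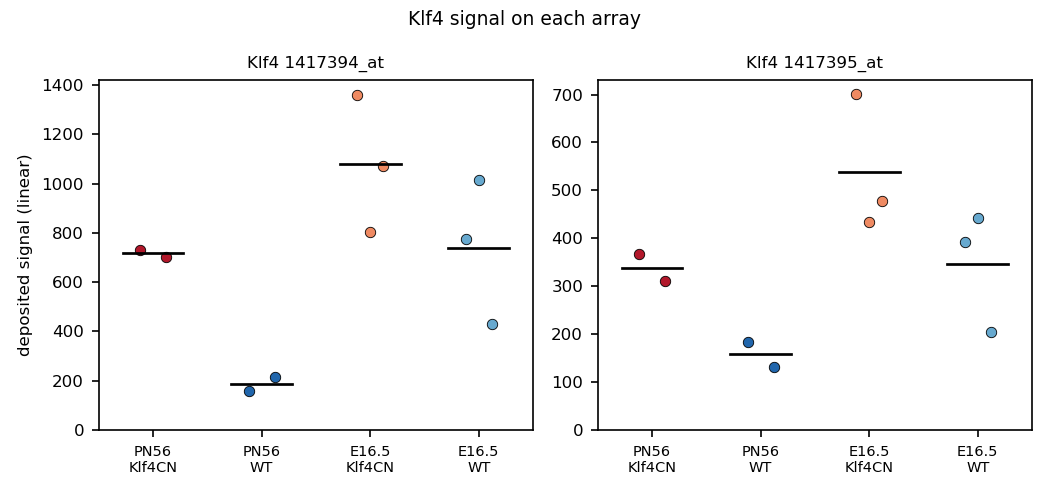
Deposited signal (linear axis from 0) of both Klf4 probe sets on each of the 10 arrays, with points for arrays and short black lines for group means. In both panels the 2 PN56 Klf4CN points lie above the 2 PN56 WT points, and the E16.5 groups overlap.

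The size of the Klf4 difference was not shown to depend on age. For 1417394_at, the PN56 difference minus the E16.5 difference was 1.29 (SE 0.44, 95% interval 0.34 to 2.24, limma adjusted p = 0.136), and 1.64 without E16.5 WT replicate 3, the lowest of its group, where it was past the test (limma adjusted p = 0.038). For 1417395_at it was 0.39 (-0.57 to 1.36, limma adjusted p = 0.692). None of the 29 member probe sets was past this test of ages, against 3.20% of all 27022 probe sets tested; 1 member probe set and 4951 of all probe sets had an unadjusted limma p under 0.05.

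Among the other members no probe set was past the test at either age. At PN56, 1 of the 29 was called, Klf4, against 10.1% of all probe sets in either direction and 5.09% called higher, and 10 of 29 had groups that did not overlap, against 49.0%. At E16.5, 0 of the 29 were called by limma, against 0.00370%, with 1 at an unadjusted p under 0.05 (Klf4 1417395_at) and 1 without overlap (Klf5 1451739_at), against 11.2%. The median difference of the members was 0.0009 at PN56 and 0.07 at E16.5, beside -0.04 and 0.006 over all probe sets tested. That 1 call gives the family no share above the background.

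Klf5, a factor of proliferating epithelia, came nearest to the threshold after Klf4 among the activators. Its probe set 1451021_a_at read 283 and 277 in PN56 lenses labelled Klf4CN, against 107 and 126 in PN56 WT lenses. E16.5 signals were 79.5, 105 and 201 in lenses labelled Klf4CN, against 78.6, 101 and 124 in WT lenses. The PN56 groups were separate and the E16.5 groups were not. The difference at PN56 was 1.16 (SE 0.39, 95% interval 0.31 to 2.01, limma adjusted p = 0.082). It was past the test with quantile normalization (1.47) and with each array centred on its median (1.29). A dimmer Klf5 probe set, 1451739_at, read 67 and 265 in PN56 lenses labelled Klf4CN, against 72.8 and 119 in PN56 WT lenses, and these groups overlapped.

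Klf16, a Sin3-binding member, read 630.4 and 467 in PN56 lenses labelled Klf4CN, against 797 and 949.6 in PN56 WT lenses. Its E16.5 signals were 966, 741 and 1134 in lenses labelled Klf4CN, against 1158, 988 and 915 in WT lenses. Both PN56 Klf4CN arrays were the lowest of the 10. The PN56 difference was -0.66 (SE 0.22, 95% interval -1.14 to -0.19, limma adjusted p = 0.073), past the test at -0.87 without PN56 Klf4CN replicate 1 (limma adjusted p = 0.0495). At E16.5 it was -0.12 (-0.50 to 0.26).

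For the remaining members the PN56 intervals were wide. The brightest Klf6 probe set, 1433508_at, had a difference of -0.36 (-0.68 to -0.04, limma adjusted p = 0.146), and the brightest Klf7 probe set, 1449439_at, one of -0.40 (-0.79 to -0.01, limma adjusted p = 0.178). Klf2 stood at 0.19 (-0.50 to 0.88), Klf10 at -0.14 (-0.70 to 0.42), the brightest Klf3 probe set at 0.14 (-0.26 to 0.54), Klf9 at -0.20 (-0.81 to 0.42) and Klf13 at 0.34 (-0.22 to 0.91). For Klf9 1428289_at the difference was -0.49, and -1.04 without PN56 Klf4CN replicate 1, where it was past the test (limma adjusted p = 0.032). Each of these last intervals spans 0, and its ends mark the differences the arrays could not tell from it.

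**Figure D2:**
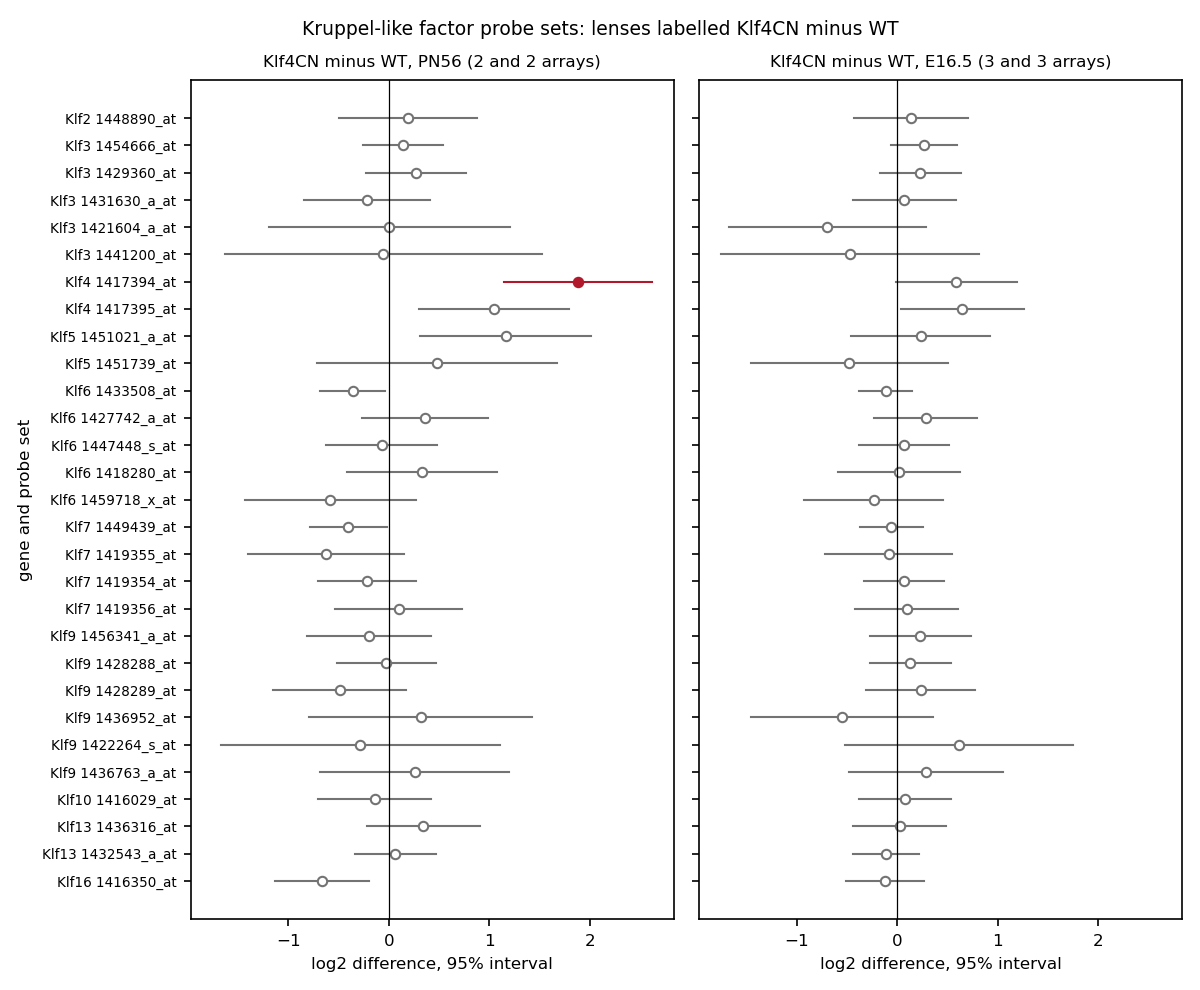
Log2 difference of lenses labelled Klf4CN minus WT for the 29 tested probe sets at PN56 (left) and E16.5 (right), with 95% intervals from limma; filled symbols passed the test and open symbols did not. Klf4 1417394_at at PN56, at 1.88, is the only filled symbol.

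Genes described as KLF4 targets in other tissues were read beside Klf4, and 17 of the list were tested. At PN56, 2 rose and 0 fell in lenses labelled Klf4CN, with a list median of -0.09 beside -0.04 over all probe sets. These 2 calls are to be read against the 10.1% of all probe sets called in this comparison, and say nothing particular about the list. Cdkn1a, which encodes the cell cycle inhibitor p21, averaged 1701 in lenses labelled Klf4CN and 191 in WT lenses at PN56 (log2 difference 3.05, SE 0.24, limma adjusted p = 2.9e-05). Cdkn1b, which encodes the related inhibitor p27, averaged 1447 and 764 in the same order (0.95, SE 0.18, limma adjusted p = 0.00645), and was at 0.60 without PN56 WT replicate 1. At E16.5 Cdkn1a was called too (1.69, limma adjusted p = 0.043), the only 1 of the 27022 probe sets called between genotypes at that age. Its difference stayed at 1.49 to 1.81 over 21 alternatives, although the adjusted p was above 0.05 in 15 of them.

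Among the other genes, 5 had the array pattern most like that of Klf4 1417394_at (of 13446 candidates), measured as the root mean square difference of centred log2 signals over the 10 arrays. They were Pde4b, a cAMP phosphodiesterase (0.25), Rftn2 (0.29), Srpk2, a kinase of splicing factors (0.33), Ino80d, a chromatin remodelling subunit (0.34), and Ankrd11 (0.34). The other Klf4 probe set was at 0.39 and the median candidate at 0.96. Srpk2 averaged 1008 and 459 in lenses labelled Klf4CN and WT at PN56, and 1840 and 1393 at E16.5. Pde4b averaged 74 and 11.1 at PN56, and 136 and 114 at E16.5, and its PN56 WT mean, like that of Rftn2 (8.75), lay below the offset of 16.

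The comparison of ages asked which members differ between young adult and embryonic lenses of the same genotype. In lenses labelled Klf4CN 10 of the 29 probe sets rose and 7 fell, and in WT lenses 8 rose and 10 fell. Klf2, Klf7 and Klf10 fell and Klf6 and Klf9 rose in both genotypes, and Klf3 did both, according to the probe set. Called shares over all probe sets were 47.6% in lenses labelled Klf4CN (23.2% higher, 24.4% lower) and 51.3% in WT lenses (26.6% higher, 24.7% lower). These shares are the background for every count of age calls given below. Groups did not overlap for 26 of 29 members in lenses labelled Klf4CN, against 68.1%, and for 21 of 29 in WT, against 67.4%. The members' called share was thus near the background, so it says nothing particular about the family.

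Direction in this comparison depends on scaling for small differences. With each array centred on its median, the median of all probe sets moved by 0.35 to -0.30 in lenses labelled Klf4CN and by 0.52 to -0.42 in WT lenses, and the members' split became 4 higher and 11 lower in each. Rises then made up 28.8% of all calls in lenses labelled Klf4CN, against 48.8% as deposited, and 25% in WT, against 51.9%. No called member turned direction under any scaling tried.

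Klf2, the shear-responsive factor of quiescent endothelium, read 137 and 87.6 in PN56 lenses labelled Klf4CN and 91.6 and 97 in PN56 WT lenses. In E16.5 lenses it read 427, 253 and 426 in lenses labelled Klf4CN and 378, 333 and 271 in WT lenses. All 4 PN56 arrays lay below all 6 E16.5 arrays. PN56 minus E16.5 was -1.58 in lenses labelled Klf4CN (SE 0.29, limma adjusted p = 7.1e-04) and -1.63 in WT lenses (SE 0.29, limma adjusted p = 5.2e-04), and both calls held in all 21 alternatives. On the same arrays 12 of 12 endothelial markers fell at PN56 in both genotypes, with a median of -3.02 in lenses labelled Klf4CN and -3.03 in WT lenses. Their summed signal was 932 to 1125 and 814 to 973 in PN56 lenses labelled Klf4CN and WT, and 6932 to 10890 and 7414 to 9834 at E16.5. Macrophage markers fell in 9 of 12 in lenses labelled Klf4CN and 11 of 12 in WT, and erythroid markers in 3 of 3 in both. The part of these cells in the Klf2 signal was not tested.

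Klf4, which endothelium is known to express too, fell at PN56 in WT lenses on 1417394_at (-1.84, SE 0.31, limma adjusted p = 3.3e-04) and on 1417395_at (-1.01, SE 0.31, limma adjusted p = 0.017). The first call held in all 21 alternatives. The second was lost without PN56 WT replicate 2 (-0.79) and without E16.5 WT replicate 1 (-0.89) or 2 (-0.81). In lenses labelled Klf4CN the differences were -0.55 (-1.22 to 0.12, limma adjusted p = 0.165) and -0.62 (-1.30 to 0.06, limma adjusted p = 0.125), not past the test as deposited. With each array centred on its median they were -0.89 and -0.96 and past it, and with the replicate block the second was at -0.81 and past it. The difference between genotypes in these age differences is the same quantity as the test of ages above and was not past its threshold.

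Klf7, a factor best known from neurons, had the smallest adjusted p of the family. Its brightest probe set, 1449439_at, read 403 and 425 in PN56 lenses labelled Klf4CN and 508 and 599.7 in PN56 WT lenses. At E16.5 it read 1537, 1359 and 1662 in lenses labelled Klf4CN and 1295, 1676 and 1801 in WT lenses. Every PN56 array lay far below the lowest E16.5 array. The differences were -1.83 in lenses labelled Klf4CN (SE 0.16, limma adjusted p = 2.0e-06) and -1.49 in WT lenses (SE 0.16, limma adjusted p = 1.0e-05). The probe set 1419355_at fell in both (-2.00 in lenses labelled Klf4CN and -1.46 in WT), and stood at -0.89 in WT without PN56 WT replicate 1. The probe set 1419354_at fell in both (-0.86 in lenses labelled Klf4CN and -0.57 in WT). Its WT call was lost without PN56 WT replicate 2 (-0.27), without E16.5 WT replicate 2 or 3 and in 4 other alternatives. The remaining 1419356_at was at -0.14 in both genotypes (limma adjusted p = 0.686 in lenses labelled Klf4CN and 0.684 in WT), so that the probe sets of Klf7 disagreed.

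Retinal neuron and progenitor markers also differed between the ages: 7 of 11 fell in lenses labelled Klf4CN (median -2.74) and 1 of 11 in WT (median -1.08; 8 without E16.5 WT replicate 1). Their summed signal was 1540 to 1813 and 1719 to 1946 in PN56 lenses labelled Klf4CN and WT, and 5665 to 17410 and 525 to 8795 at E16.5. E16.5 WT replicate 1, which held the 525, read 1295 on Klf7 1449439_at, and without it the WT difference was -1.63, against -1.49 with it. The part of retinal cells in the Klf7 signal was not tested.

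Klf6, a broadly expressed activator, rose on 4 probe sets in WT lenses and on 3 in lenses labelled Klf4CN. The probe set 1418280_at read 486 and 472 in PN56 lenses labelled Klf4CN and 359 and 396 in PN56 WT lenses. On E16.5 arrays it read 119, 69.8 and 84.9 in lenses labelled Klf4CN and 59.4, 129.8 and 86.4 in WT lenses. The ages were far apart in both genotypes. The differences were 2.23 in lenses labelled Klf4CN (SE 0.31, limma adjusted p = 8.8e-05) and 1.92 in WT (SE 0.31, limma adjusted p = 2.7e-04), past the test under each alternative that kept this probe set. The brighter probe set 1433508_at was at 0.35 (limma adjusted p = 0.0503) in lenses labelled Klf4CN and at 0.60 (limma adjusted p = 0.00284) in WT. The Klf4CN difference was past the test in 6 of 21 alternatives, among them quantile normalization (0.47, limma adjusted p = 0.013) and the fits without either PN56 WT array. With each array centred on its median, neither was past it (0.0021 in lenses labelled Klf4CN and 0.08 in WT).

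The other called Klf6 probe sets were less stable. 1427742_a_at was at 0.82 in lenses labelled Klf4CN and 0.74 in WT, where the ages overlapped, and at 0.38 in WT without PN56 WT replicate 2. 1447448_s_at was at 0.80 and 0.94, and 0.55 in WT without that replicate, and both lost their calls in both genotypes when arrays were centred on their medians. The Klf4CN call of 1427742_a_at was also lost without PN56 Klf4CN replicate 1 or E16.5 Klf4CN replicate 2, its WT call without 1 or 3 of the E16.5 WT arrays, and the Klf4CN call of 1447448_s_at without PN56 Klf4CN replicate 2. The remaining 1459718_x_at was at 0.35 and 0.70 and not past the test in either genotype, save in WT without the intensity trend. Probe sets with these endings can match more than 1 transcript, so their signals are less certain. The same limit holds for other genes named here, among them Klf9 1456341_a_at, Klf3 1431630_a_at, Klf5 1451021_a_at and Klf13 1432543_a_at.

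Klf5 rose in lenses labelled Klf4CN, by 1.12 on 1451021_a_at (SE 0.36, limma adjusted p = 0.021) and by 1.59 on 1451739_at (SE 0.50, limma adjusted p = 0.020). In WT lenses the differences were 0.20 (-0.58 to 0.97, limma adjusted p = 0.671) and 0.64 (-0.45 to 1.73, limma adjusted p = 0.308). Between genotypes these age differences differed by 0.93 (limma adjusted p = 0.357) and 0.96 (limma adjusted p = 0.521), which was not past the test. The call of 1451739_at rested on PN56 Klf4CN replicate 2 at 265, and without it the difference was 0.71, while without replicate 1 it was 2.47. That call was also lost without E16.5 Klf4CN replicate 3 and with quantile normalization (1.35). The call of 1451021_a_at was lost without either PN56 Klf4CN array, without E16.5 Klf4CN replicates 1 or 2, and with each array centred on its median (0.78).

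**Figure D3:**
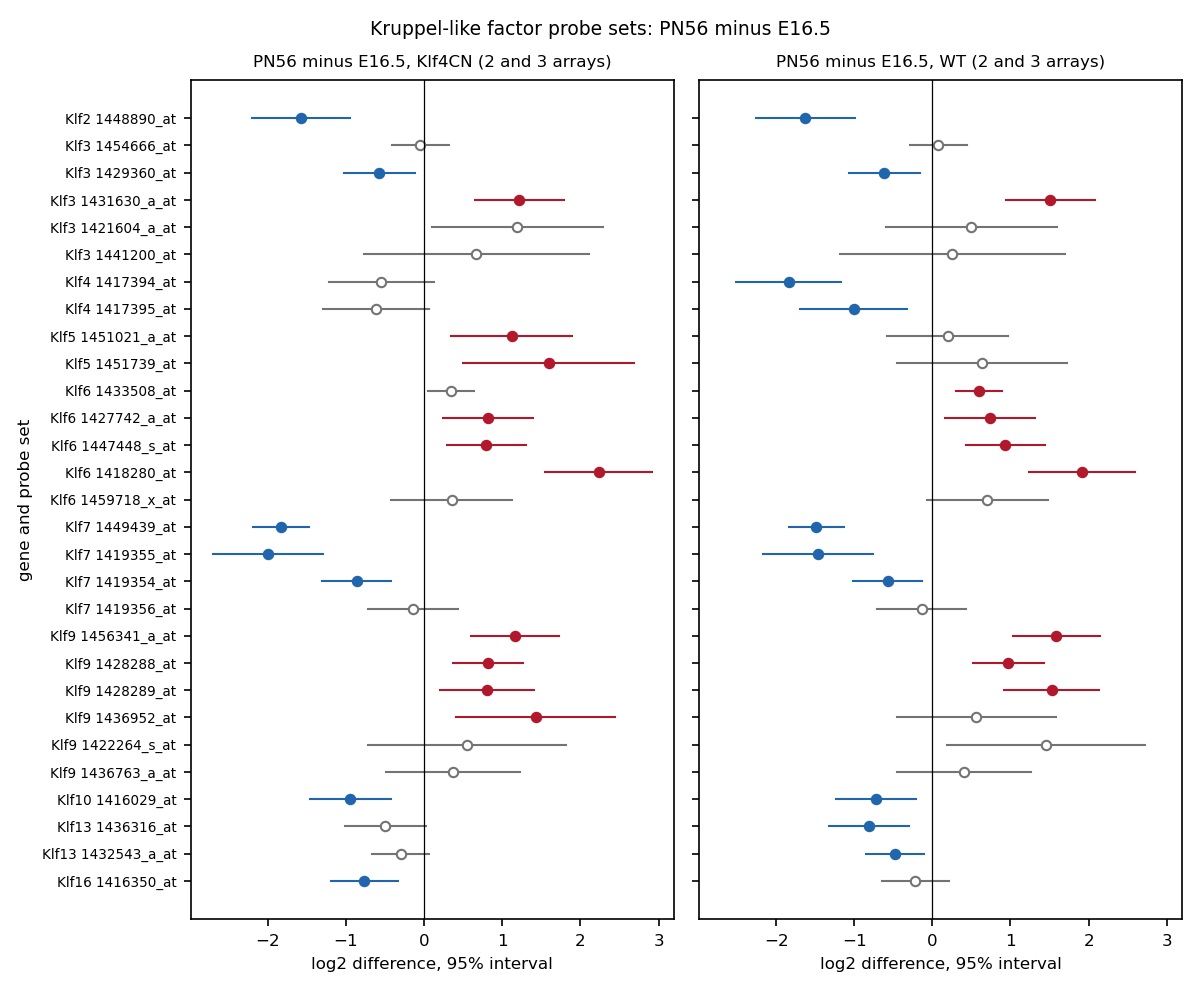
Log2 difference of PN56 minus E16.5 for the 29 tested probe sets in lenses labelled Klf4CN (left) and WT (right), with 95% intervals from limma; filled symbols passed the test, red above 0 and blue below. Klf2, Klf7 and Klf10 stand left of 0, Klf6 and Klf9 right of it, and Klf3 on both sides.

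Klf3, the CtBP-dependent repressor, had probe sets that passed the test in opposite directions. The probe set 1431630_a_at read 514 and 447 in PN56 lenses labelled Klf4CN and 513 and 614 in PN56 WT lenses. E16.5 arrays read 258, 167 and 176 in lenses labelled Klf4CN and 212, 134 and 228 in WT lenses. It rose by 1.22 in lenses labelled Klf4CN (SE 0.26, limma adjusted p = 0.0022) and by 1.51 in WT lenses (SE 0.26, limma adjusted p = 4.5e-04). Both calls held under each alternative that kept this probe set.

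The probe set 1429360_at of Klf3 read 297 and 253 in PN56 lenses labelled Klf4CN and 236 and 214 in PN56 WT lenses. In the embryo it read 486, 375 and 395 in lenses labelled Klf4CN and 326, 423 and 318 in WT lenses. It fell in lenses labelled Klf4CN (-0.57, SE 0.21, limma adjusted p = 0.038) and in WT lenses (-0.62, SE 0.21, limma adjusted p = 0.026). The groups did not overlap, but the call was lost in lenses labelled Klf4CN without either PN56 Klf4CN array or without 1 or 3 of the E16.5 Klf4CN arrays, and in WT without the second array of either age. The brightest Klf3 probe set, 1454666_at, read 1240.2 and 900 in PN56 lenses labelled Klf4CN and 1050 and 872 in PN56 WT lenses. Its E16.5 signals were 1004, 1067 and 1226 in lenses labelled Klf4CN and 898, 1014 and 819 in WT lenses. All 4 groups overlapped there, at -0.05 (-0.42 to 0.32) and 0.08 (-0.29 to 0.44), so the brightest probe set showed neither direction. Whether the probe sets read different Klf3 transcripts was not tested.

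Klf9, a Sin3-binding factor induced by glucocorticoid and thyroid hormone, rose in both genotypes. Its brightest probe set, 1456341_a_at, read 1550 and 709.9 in PN56 lenses labelled Klf4CN and 1110 and 1310 in PN56 WT lenses. At E16.5 it read 481, 505 and 404 in lenses labelled Klf4CN and 424, 388 and 361 in WT lenses. The ages were separate in both genotypes, and the PN56 Klf4CN arrays differed from each other more than the genotypes did. It rose by 1.16 in lenses labelled Klf4CN (SE 0.26, limma adjusted p = 0.00268; 0.61 without PN56 Klf4CN replicate 1) and by 1.59 in WT lenses (SE 0.26, limma adjusted p = 2.6e-04), and both calls held in all 21 alternatives.

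Other Klf9 probe sets did not order the PN56 Klf4CN arrays alike. 1428289_at read 826 and 378 there, and 1428288_at 687 and 1032, against 891 and 706, and 864 and 854, in PN56 WT lenses. 1428289_at rose by 0.80 in lenses labelled Klf4CN and by 1.53 in WT, and its Klf4CN difference was 0.26 and not past the test without PN56 Klf4CN replicate 1 but 1.35 without replicate 2. The call was also lost without E16.5 Klf4CN replicate 1 or 3 and with each array centred on its median (0.46). 1428288_at rose by 0.82 and 0.97, not past the test in lenses labelled Klf4CN without PN56 Klf4CN replicate 2 (0.53) nor in either genotype with each array centred on its median (0.47 and 0.45). The dimmer 1436952_at was called in lenses labelled Klf4CN (1.43, limma adjusted p = 0.024; lost without PN56 Klf4CN replicate 2 or E16.5 Klf4CN replicates 1 or 2) and not in WT (0.56, limma adjusted p = 0.333). 1422264_s_at was at 0.55 and 1.46 and 1436763_a_at at 0.37 and 0.40, none past the test on all 10 arrays with the offset of 16. In WT, 1422264_s_at was past it without E16.5 WT replicate 1 (1.77) or 2 (1.86) and with an offset of 64 (0.87).

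Photoreceptor markers also rose on the arrays where Klf6 and Klf9 were higher, and pigment cell markers did so mainly in WT lenses. Of 9 photoreceptor markers 8 rose in each genotype, with a median of 3.91 in lenses labelled Klf4CN and 3.28 in WT lenses. They summed to 17970 and 5610 in PN56 lenses labelled Klf4CN and to 7044 and 6976 in PN56 WT lenses, against 455 to 797 and 320.5 to 451 at E16.5. PN56 Klf4CN replicate 1, which held the 17970, was also the array at 1550 on Klf9 1456341_a_at. Klf9 1428288_at and 1436952_at went the other way, at 687 and 123.3 on that array against 1032 and 195.5 on replicate 2. The other tested Klf9 probe sets were higher on replicate 1. Of 7 pigment cell markers 2 rose and 1 fell in lenses labelled Klf4CN, and 5 rose in WT lenses. They summed to 5774 and 5712 in PN56 lenses labelled Klf4CN and to 9339 and 11160 in PN56 WT lenses, against 3512 to 9324 and 2580 to 3641 at E16.5. The part of these cells in the Klf6 and Klf9 signals was not tested.

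Glucocorticoid-responsive and clock genes were read beside Klf9, which is known to respond to both. Of 17 tested, 9 rose and 0 fell in lenses labelled Klf4CN (median 0.78 beside 0.05 over all probe sets). In WT lenses 11 rose and 1 fell (1.15 beside 0.10). Over all probe sets 23.2% and 26.6% were called higher in lenses labelled Klf4CN and WT, and 24.4% and 24.7% lower. Dbp, a clock output factor, rose by 2.12 in lenses labelled Klf4CN and by 2.29 in WT lenses. Tef, of the same protein family, rose by 2.23 and 2.52, and the clock repressor Nr1d2 by 2.43 and 2.53, with limma adjusted p at or under 9.0e-06 for all of these. Between genotypes none of the 17 was called at PN56 (1, lower, without PN56 Klf4CN replicate 1) or E16.5. The time of day at which lenses were taken is not given, and its part was not tested.

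Klf10, known as an early gene of TGF-beta signalling, read 481 and 335 in PN56 lenses labelled Klf4CN and 499 and 395 in PN56 WT lenses. At E16.5 it read 934, 598 and 870.2 in lenses labelled Klf4CN and 819, 843 and 595 in WT lenses. The PN56 arrays were lower than all E16.5 arrays. It fell in lenses labelled Klf4CN (-0.94, SE 0.24, limma adjusted p = 0.00563) and in WT lenses (-0.72, SE 0.24, limma adjusted p = 0.022). The first call was lost without PN56 Klf4CN replicate 2 (-0.69), and the second without PN56 WT replicate 2 (-0.56) or E16.5 WT replicate 1 (-0.66) or 2 (-0.63).

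Of 16 TGF-beta genes tested, 2 rose and 9 fell at PN56 in lenses labelled Klf4CN (median -0.46), and 3 rose and 8 fell in WT lenses (-0.59). Over all probe sets the medians were 0.05 and 0.10, with 23.2% and 26.6% called higher and 24.4% and 24.7% lower. Those that moved went opposite ways within the list. The ligand gene Tgfb3 rose by 3.46 in lenses labelled Klf4CN and 3.86 in WT lenses, and the receptor gene Tgfbr1 fell (-1.70 and -1.12). Between genotypes at PN56, 2 of the 16 were called, where 10.1% of all probe sets were. Both calls were lost with each array centred on its median, without the intensity trend, with arrays weighted and with only the groups compared. At PN56 Tgfbr1 (-0.65, limma adjusted p = 0.013) and the ligand gene Tgfb2 (-0.74, limma adjusted p = 0.017) were lower in lenses labelled Klf4CN, and neither was past the test without PN56 WT replicate 2 or PN56 Klf4CN replicate 2.

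Klf13 and Klf16, the other Sin3-binding members, were each past the age test in 1 genotype. Klf13 1436316_at read 277 and 471 in PN56 lenses labelled Klf4CN and 289 and 275 in PN56 WT lenses, against 415, 545 and 606 and 476, 583 and 469 at E16.5. It fell in WT lenses (-0.81, SE 0.24, limma adjusted p = 0.012; lost without PN56 WT replicate 2) and was at -0.50 in lenses labelled Klf4CN (limma adjusted p = 0.104; -0.86 and past the test without PN56 Klf4CN replicate 2). Klf13 1432543_a_at fell in WT lenses (-0.48), a call lost without either PN56 WT array or E16.5 WT replicate 1 or 2, and was at -0.30 in lenses labelled Klf4CN. Klf16 fell in lenses labelled Klf4CN (-0.76, SE 0.20, limma adjusted p = 0.00683; -0.55 and not past the test without PN56 Klf4CN replicate 2) and was at -0.22 in WT (limma adjusted p = 0.374). With each array centred on its median, both Klf13 probe sets were past the test in lenses labelled Klf4CN, and Klf16 in WT lenses (-0.74). Between genotypes these age differences differed by 0.32 for Klf13 1436316_at and -0.54 for Klf16 (limma adjusted p = 0.668 and 0.327), not past the test.

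**Figure D4:**
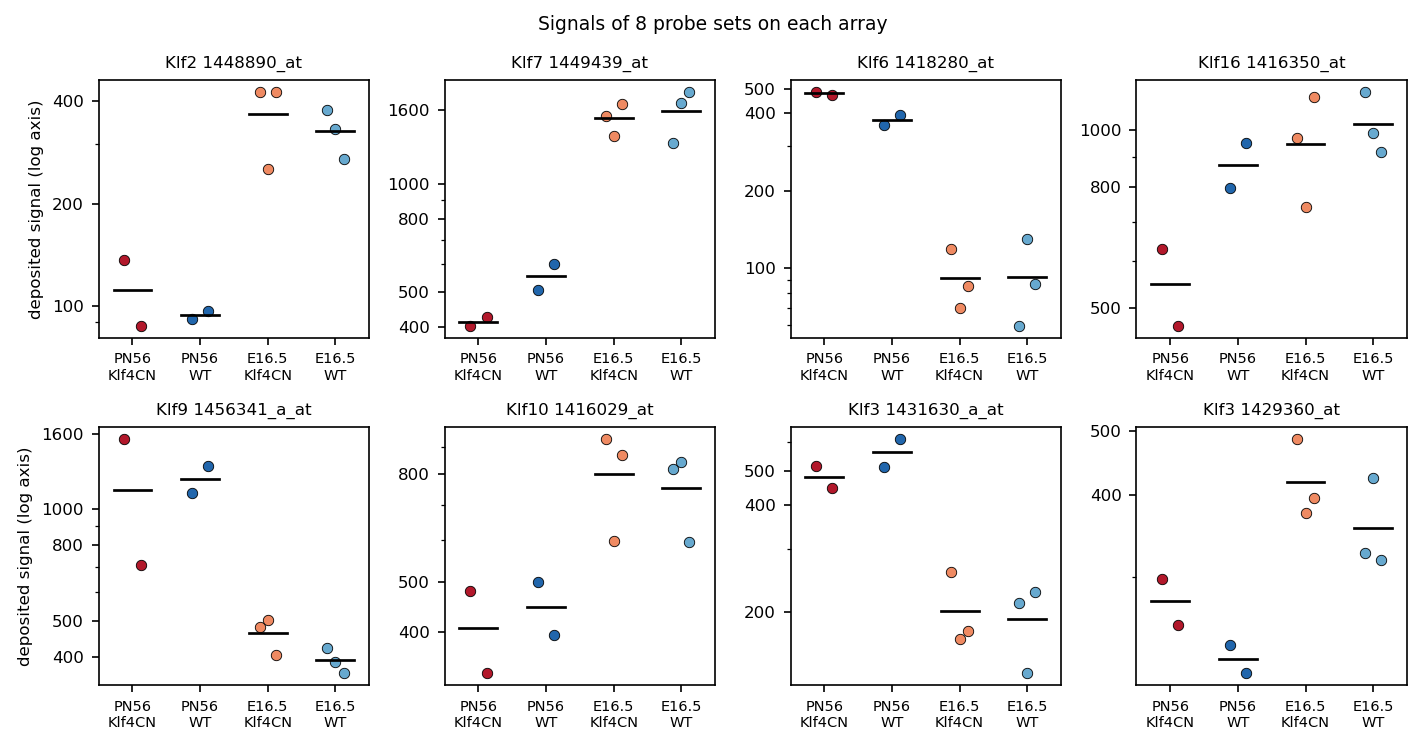
Deposited signal (log axis) of 8 member probe sets on each of the 10 arrays, with points for arrays and short black lines for group means. Klf2, Klf7, Klf10 and Klf3 1429360_at are lower at PN56 than at E16.5, and Klf6 1418280_at, Klf9 1456341_a_at and Klf3 1431630_a_at higher, while for Klf16 the PN56 Klf4CN arrays are the lowest.

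Across the 4 groups, the brightest probe set of each gene gave an order of levels. Klf4 ran from 1079 in E16.5 lenses labelled Klf4CN through 739 in E16.5 WT and 717 in PN56 lenses labelled Klf4CN to 185 in PN56 WT, and only the last step was free of overlap. Klf2, Klf9 and Klf10 had 1 step without overlap each, the step between ages. For Klf6 1433508_at the PN56 WT mean of 1229, the PN56 Klf4CN mean of 950 and the E16.5 means (806 for WT, 743 for Klf4CN) were separated at the first 2 steps. For Klf7 the PN56 Klf4CN mean of 414 was also separate from the PN56 WT mean of 554. These PN56 genotype differences of Klf6 and Klf7 were not past the test (limma adjusted p = 0.146 and 0.178). Of all probe sets tested, 49.0% had genotype groups that did not overlap at PN56. Klf3 1454666_at and Klf13 1436316_at had no step without overlap.

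Of the other KLF and SP genes, 10 of the 13 on the array were tested. None was called between genotypes by limma at PN56 or E16.5. Between ages 1 rose and 2 fell in lenses labelled Klf4CN, and 1 rose and 3 fell in WT lenses. Klf15, a glucocorticoid-responsive member, rose to a mean of 277 at PN56 in lenses labelled Klf4CN, against 105 at E16.5 (1.32, limma adjusted p = 0.030; lost without any 1 of 3 Klf4CN arrays), and to 406 in WT lenses, against 97.5 (1.95, limma adjusted p = 0.00339). Sp3 and Sp4, which read the same GC boxes, fell in lenses labelled Klf4CN (-1.38 and -1.47) and in WT lenses (-1.39 and -1.41). Klf11 fell in WT lenses (-0.57), a call lost in 6 alternatives, among them the removal of either PN56 WT array.

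Of 14 cofactor genes of the family tested between ages, 3 rose and 8 fell in lenses labelled Klf4CN (median -0.48), and 2 rose and 8 fell in WT lenses (-0.49). Over all probe sets the medians were 0.05 and 0.10, with 24.4% and 24.7% called lower. The Sin3 gene Sin3b rose by 2.04 in lenses labelled Klf4CN and 1.92 in WT lenses on a probe set that can match other genes, while Ep300, which encodes p300, fell (-1.59 and -1.80). The acetyltransferase gene Kat2a fell (-1.55 and -1.25), and so did the deacetylase gene Hdac2 (-1.17 and -1.26). At PN56, 3 were lower in lenses labelled Klf4CN: Hdac1 (-0.91), the ubiquitin ligase gene Wwp1 (-0.81) and the corepressor gene Ctbp2 (-0.56). Over all probe sets 10.1% were called in this comparison. All 3 calls were lost without the intensity trend and with arrays weighted. Ctbp2 was also lost with each array centred on its median and with only the groups compared. None of the 3 was past the test without PN56 WT replicate 2; Wwp1 was not past it either without PN56 Klf4CN replicate 1, nor Ctbp2 without PN56 Klf4CN replicate 2.

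The 5 member probe sets below the filter were not tested. Klf3 1442920_at read 9.5 and 74 in PN56 lenses labelled Klf4CN and 9.2 and 23.6 in PN56 WT lenses, against 25.3 to 62.2 and 18 to 49.6 at E16.5. Klf3 1458487_at stayed between 4 and 23.7 on all arrays, and Klf5 1430255_at between 4.7 and 31.5 save for 72.2 on PN56 WT replicate 1. Klf9 1452723_at likewise reached 74.3 on that array, against 2.1 to 39.5 on the others. Klf13 1456030_at read 22.9 and 15.9 in PN56 lenses labelled Klf4CN and 19 and 16.8 in PN56 WT lenses, against 11.3 to 41.9 and 33.3 to 76.1 at E16.5. Among the tested, 2 faint Klf3 probe sets were also uneven: 1441200_at read 266 and 30.2 on the PN56 WT arrays, and 1421604_a_at 16.3 on E16.5 Klf4CN replicate 3 beside 116 and 92.4. Neither was past an age test, save 1441200_at in WT without PN56 WT replicate 2 (1.56) and 1421604_a_at in lenses labelled Klf4CN without E16.5 Klf4CN replicate 1 (1.58).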

How the data were processed

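Total RNA from whole lenses was amplified with a 3' IVT kit and hybridised to Affymetrix mouse genome arrays, 1 per pooled sample. The authors deposited linear signal intensities, made with GCOS 1.4 per the submitters' processing notes; each array's 2% trimmed mean came out at 500. No sequencing depth applies, and the number of arrays limits precision.

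From these, log2(intensity + 16) of probe sets at or above the 40th percentile of mean signal was fitted with limma 3.58.1 in R 4.3.3 (4 group means, 10 arrays, 6 residual degrees of freedom, intensity trend). Tests were two-sided with Benjamini-Hochberg adjustment over all 27022 probe sets, threshold 0.05. Every member probe set was named; levels of different probe sets are not compared. List genes were each represented by their brightest probe set. Members and lists were chosen with earlier results of these data known. Replicate numbers were not taken to pair the arrays, since not every same-numbered pair's deviations correlated above 0.1. Many of those pairs join arrays of different ages, so that rule cannot decide pairing within an age. Alternatives covered scaling, offset, filter, probe set choice, variance model, groups fitted, the replicate block and each array left out. The fit was tested on simulated data. p-values measure the spread between pooled preparations.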

Additional observations from a re-analysis of the deposited data

Results flagged for a closer look

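For 4 genes named beside the Kruppel-like factors, the difference between lenses labelled Klf4CN and WT itself differed between the ages, tested as the PN56 difference minus the E16.5 difference in limma. It was 1.36 for Cdkn1a (adjusted p = 0.036), 1.08 for Cdkn1b (0.028), 0.83 for Dusp1 (0.021) and -0.98 for Hdac1 (0.049). None of these calls held in all alternatives: leaving out any 1 of the 10 arrays ended at least 2 of the 4. No Kruppel-like factor probe set passed this test on all 10 arrays.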

How the results depend on the processing

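Of the member calls as reported, the Klf4 call at PN56, 8 of 18 age calls in WT lenses and 7 of 17 in lenses labelled Klf4CN held in all alternatives that kept the probe set, and no call turned direction. The number of member probe sets called at PN56 between genotypes was 1, and 3 with quantile normalization, 2 with each array centred on its median, 2 with the replicate block and 1 to 3 over arrays left out. Rises made up 50.6% of all calls in that comparison as deposited and 74.3% with each array centred on its median, and 59.6% and 83.4% in the test of ages. Age calls were 18 in WT lenses and 17 in lenses labelled Klf4CN; with only the brightest probe set of each gene, of which there are 10, they were 7 and 7. Over arrays left out they were 11 to 18 and 10 to 18, the fewest without PN56 WT replicate 2 and PN56 Klf4CN replicate 2. The test of ages called 0 member probe sets, and 0 to 1 over arrays left out: Klf4 1417394_at without E16.5 WT replicate 3 and Klf9 1428289_at without PN56 Klf4CN replicate 1. At E16.5 the count between genotypes was 0 throughout. The cause of these changes was not tested. Among 13 same-numbered pairs the deviations correlated at -0.04 to 0.181, 2 above 0.1. Many of these pairs join arrays of different ages, so their values cannot decide pairing within an age. In the main fit the samples are taken to share only a number. Between the E16.5 genotypes the same-numbered correlations were 0.181, 0.148 and 0.092. Each array correlated best with its own number there, a hint from the data and not from the design. Leaving out a PN56 array leaves 1 in its group, assumed to vary like the others. For the test of ages a fit of only the groups compared is the main fit itself and was not repeated. Signals near the offset of 16 limit what faint probe sets can show.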

Other observations

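Immediate early genes, transcribed within minutes of a stimulus and including targets shared with several Kruppel-like factors, were followed as a list of 17 tested genes. At PN56, 2 rose and 0 fell in lenses labelled Klf4CN, where 5.09% of all probe sets were called higher. Dusp1, a MAP kinase phosphatase, averaged 3210 in lenses labelled Klf4CN and 1672 in WT lenses (log2 difference 0.93, limma adjusted p = 0.00117, 0.85 to 1.06 over 21 alternatives). Btg2, an antiproliferative gene, averaged 1449 and 859 (0.74, limma adjusted p = 0.011), a call lost without PN56 WT replicate 2 or PN56 Klf4CN replicate 2 and in 3 other alternatives. Between ages 3 rose and 5 fell in lenses labelled Klf4CN, and 4 rose and 7 fell in WT lenses (7 called without PN56 WT replicate 1). Jun, a subunit of AP-1, fell (-2.13 in lenses labelled Klf4CN and -2.20 in WT lenses), and so did Ier2 (-2.27 and -2.08). Myc fell to means of 25.3 and 7.15 at PN56, against 326 and 248 at E16.5, in lenses labelled Klf4CN and WT, and the size of this fall depends on the offset.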
